A study of Danio rerio with 228 samples.

Results

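The interferon-response genes mxc, isg15, irf7 and cxcl11.6 are 4 of the 3112 genes named on a zebrafish TempO-Seq panel of 3183 probes, and each of them is read by 1 probe. They were found by matching the gene name in the probe identifier, ignoring case, to probes MXC_86379, ISG15_86330, IRF7_85398 and CXCL11.6_86920. TempO-Seq ligates pairs of detector oligonucleotides on their target RNA and counts the ligated products. The question is whether these genes rose and fell together or apart in embryos exposed to 9 perfluorinated acids.

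Type I interferons are cytokines that cells release when they sense viral nucleic acid. They act through JAK kinases and STAT factors on a set of antiviral genes, and in fish this system works in the embryo before adaptive immunity is mature. irf7 encodes an interferon regulatory factor, a transcription factor that drives interferon genes and is itself interferon-induced. isg15 encodes a ubiquitin-like protein that is coupled to other proteins, mxc an Mx protein, a dynamin-like antiviral GTPase, and cxcl11.6 a chemokine of the CXCL11 family, whose mammalian relatives attract T cells through the receptor CXCR3.

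The acids were carboxylic (PFBA, PFHxA, PFOA, PFNA and PFDA, in order of chain length) and sulfonic (PFBS, PFHxS, PFOS and PFDS, likewise). Embryos were kept with 1 acid in 0.1% DMSO from 4 to 120 h after fertilisation, at 5 concentrations per acid, and each library is a pool of 10 whole embryos. The concentrations were 8, 25, 80, 250 and 600 µM for PFBA and PFBS, 6, 20, 60, 200 and 600 µM for PFHxA, and 6, 20, 60, 200 and 400 µM for PFHxS. They were 4, 12, 40, 120 and 400 µM for PFOA, 4, 20, 40, 200 and 450 µM for PFNA, 0.4, 1.2, 4, 12 and 40 µM for PFOS, 0.12, 0.4, 1.2, 4 and 12 µM for PFDA, and 0.06, 0.2, 0.6, 2 and 6 µM for PFDS. Groups held 4 pools, except 5 in every PFOS group and in PFOA from 40 µM up. Controls were 26 pools with 0.1% DMSO alone. PFBA, PFBS, PFHxA and PFHxS were compared with 6 pools of embryos labelled as coming from Ottawa fish (the Ottawa controls). PFOA, PFOS and PFDS were compared with 4 pools labelled as a mixture of Ottawa and Montreal fish (the mixed controls). PFDA, which no control label names, was assigned to the mixed controls by its own fish label. PFNA had 16 control pools of Ottawa fish, which were processed with it in a second batch on a plate of their own. Of these, 4 share RNA extraction batch 14 with the PFNA pools, and the others belong to extraction batches 11 to 13. All 16 are titled as PFNA controls. Only 4 of the 16 name PFNA in their sample identifiers, and the identifiers of the others read EM, ENV or EP control. The pools are labelled as replicates and no label ties them to separate spawnings. The spread behind each p-value is therefore that between pools and may be technical. In RNA from whole embryos, a change in the number of cells of a type and a change in RNA per cell cannot be told apart.

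The 214 libraries held 2254364 to 4466565 counts (median 3217205). Members were counted 3 to 292 times per library for mxc (median 30), 20 to 652 for isg15 (median 83), 15 to 901 for irf7 (median 51) and 0 to 54 for cxcl11.6 (median 14). At these depths 3 counts, the limit that a count of 0 allows, correspond to 0.672 to 1.33 CPM (counts scaled to library size), and cxcl11.6 had 0 counts in 1 library. Of 21 whole-embryo tissue markers on the panel, 20 had a median above 0 CPM in the DMSO pools, the exception being tfa. The MHC class I gene mhc1uba, chosen after its values were seen, did not follow the labels of fish origin in every pool. It lay between 10.2 and 36.9 CPM in the mixed controls and between 0.336 and 1.38 CPM in the Ottawa controls. It reached 9.59 to 29.5 CPM in PFDA, 11.781 to 38.02 in PFOA and 4.47 to 36.4 in PFDS, but 0 to 14.5 CPM in the pools labelled PFOS, and 0 to 1.13 CPM in the 5 pools at 40 µM. In PFOS, fish origin and an effect of the exposure on mhc1uba cannot be told apart. The changes of irf7, isg15 and cxcl11.6 with PFOS at 40 µM are therefore given against the Ottawa controls too. Other PFOS results, such as ratios, shares of probes and list counts, rest on the mixed controls alone.

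In unexposed embryos the members were expressed at low levels, and isg15 differed with fish origin. isg15 measured 78.2, 64.3, 26.6 and 72.9 CPM in the mixed controls, against 12.7 to 31.5 CPM (median 21.4) in the Ottawa controls and 7.59 to 50.96 CPM (median 16.3) in the PFNA controls. The mixed controls were 2.76-fold above the Ottawa controls (log2 difference 1.47 ± 0.33 SE, edgeR quasi-likelihood test, adjusted p = 0.000753, 1 of 4 members and 7.91% of probes called), with 1 of their 4 pools inside the Ottawa range. For the other members no such difference between the mixed and Ottawa controls passed the test (adjusted p of 0.392 to 0.514). mxc averaged 10.9 ± 3.8 CPM (SD, n = 4) in the mixed, 7.10 ± 4.95 (n = 6) in the Ottawa and 10.1 ± 5.9 (n = 16) in the PFNA controls. irf7 averaged 20.8 ± 4.8, 15.1 ± 5.0 and 14.2 ± 5.3 CPM in the same order. cxcl11.6, the least abundant in counts, averaged 5.64 ± 1.52, 2.88 ± 1.72 and 4.42 ± 2.33 CPM.

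**Figure D1:**
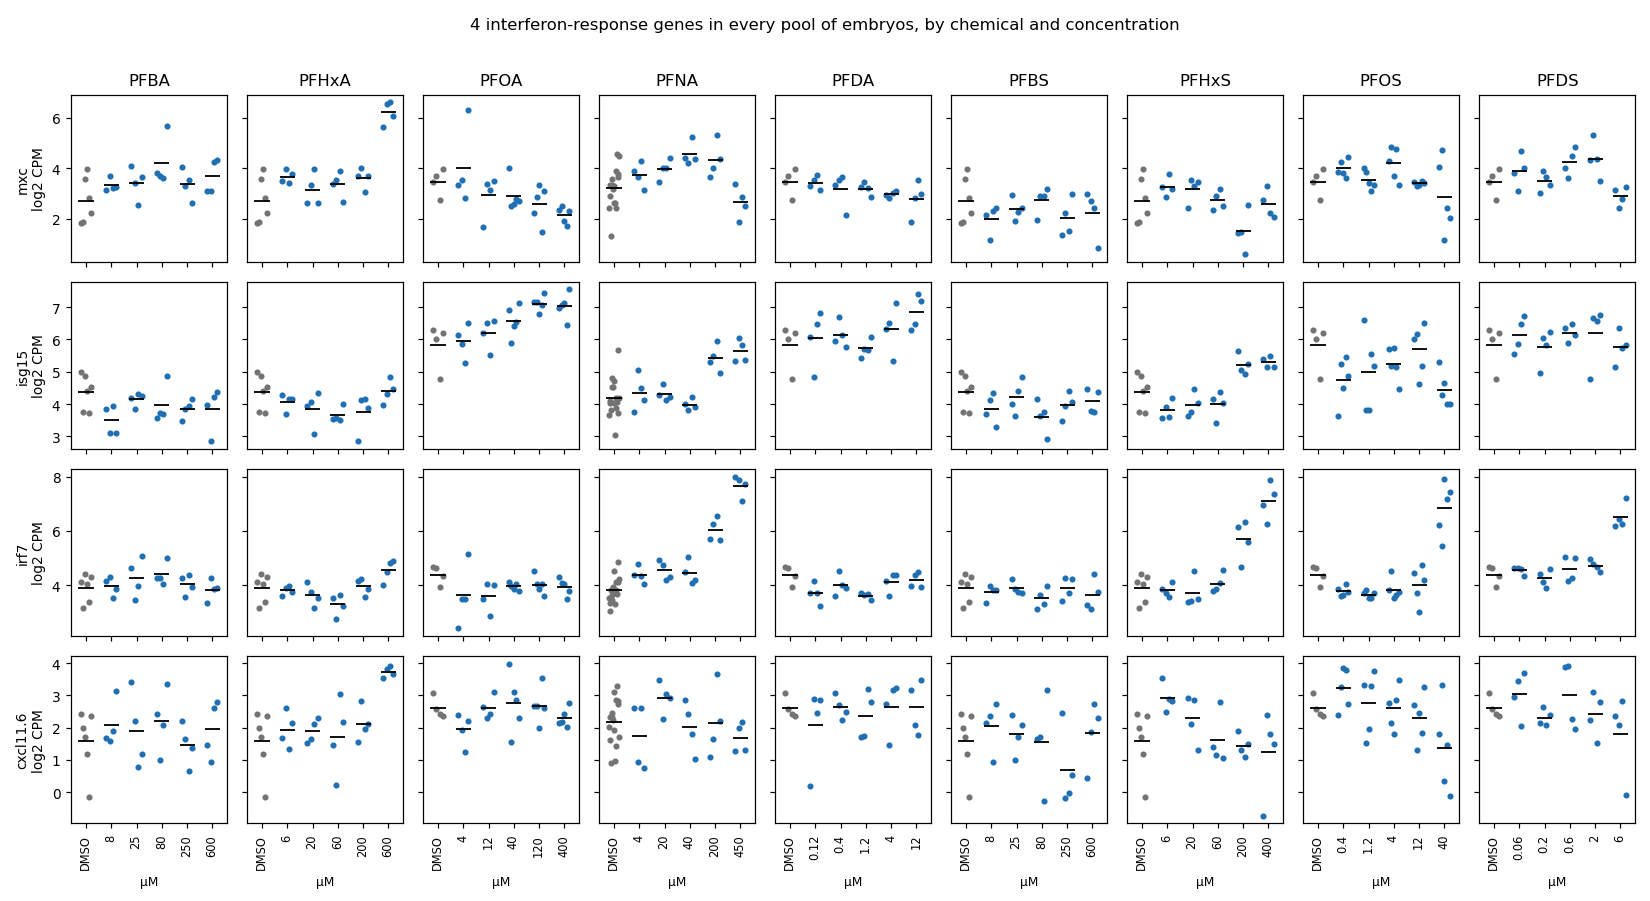
Level of each member (rows) in every pool, as log2 CPM, for the 9 acids (columns) by concentration in µM, with the assigned DMSO pools in grey at the left; each point is 1 pool and each bar the group mean. irf7 climbs at the top of the PFNA, PFHxS, PFOS and PFDS ranges, mxc and cxcl11.6 stand out at 600 µM PFHxA, and isg15 starts higher in the mixed-fish acids.

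Over all 45 comparisons of a concentration with its DMSO pools, 17 of 180 member tests passed an adjusted p of 0.05 (edgeR, Benjamini-Hochberg over all probes of each comparison), 16 of them rises and 1 a fall. They fell in 6 of the 9 acids, and in no comparison did all 4 members change. At the highest concentrations, 2 of 4 members changed with PFHxA at 600 µM, where 20.3% of all probes tested were called. With PFNA, 2 of 4 changed at 450 µM (33.1% of probes), 3 at 200 µM (9.69%) and 1 at 40 µM (4.21%). With PFHxS, 2 of 4 changed at 400 µM (21% of probes) and 2 at 200 µM (7.97%). With PFOS at 40 µM 2 of 4 changed (26.9% of probes), with PFDS at 6 µM 1 (10.2%), and with PFOA 1 at 120 µM (2.31%) and 1 at 400 µM (2.53%). Against such backgrounds the number of members called says little by itself at the highest concentrations, and the sizes of the changes follow. In PFBA, PFBS and PFDA none of the members was called at any concentration. At their highest concentrations 0.146%, 0.875% and 0.583% of probes were called, over the 35 comparisons with no member called 0 to 6.23%, and in these 3 acids unadjusted p fell under 0.05 for 4.96 to 17% of probes. DESeq2 also called none of them at the highest concentration of these 3 acids.

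At the highest concentrations the pools of 8 member and acid combinations lay wholly above their controls. These were mxc and cxcl11.6 with PFHxA (2 of 4 members, 9.47% of probes), isg15 and irf7 with PFHxS (2 of 4, 5.48%), irf7 alone with PFNA (6.99%), PFOS (8.51%) and PFDS (9.15%), and isg15 with PFOA (2.64%). mxc with PFOA lay wholly below (2.2% of probes).

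**Figure D2:**
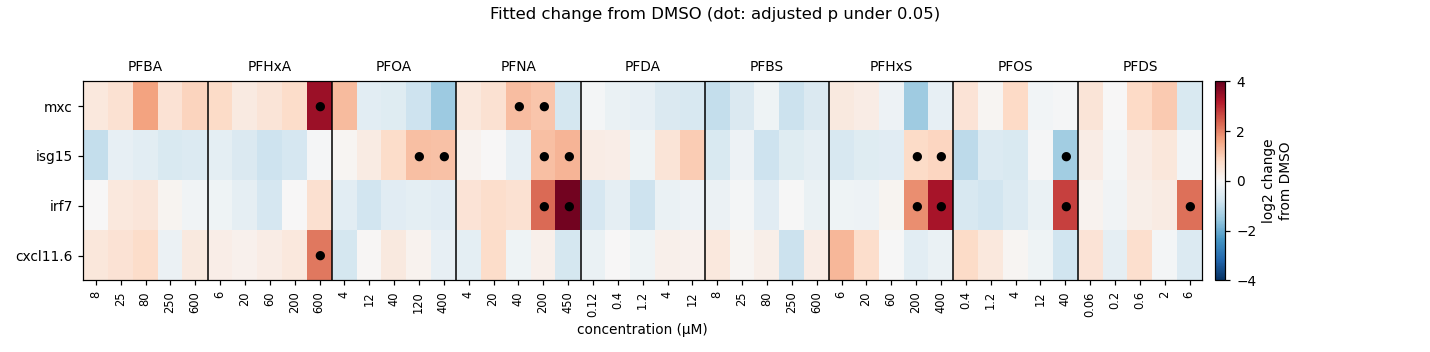
Fitted log2 change from DMSO of the 4 members (rows) at each concentration in µM of the 9 acids (columns), from −4 in blue to 4 in red, with a dot where the adjusted p was under 0.05. The dots of irf7 gather in PFNA and the sulfonic acids PFHxS, PFOS and PFDS, those of mxc and cxcl11.6 meet in 1 column, PFHxA at 600 µM.

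irf7, the regulator of the set, was called higher than DMSO in 4 acids. With PFNA at 450 µM the 4 pools measured 256, 235, 135.6 and 210 CPM, against 7.60 to 28.2 CPM (median 12.9) in 16 DMSO pools. Every exposed pool lay above every control, and the fitted rise was 14.6-fold (log2 change 3.86 ± 0.19 SE, adjusted p = 2.63e-18), with rank 2 by p among 2848 probes. At 200 µM the pools measured 51.98, 75.4, 94.2 and 49.8 CPM, again all above the controls (4.76-fold, log2 2.25 ± 0.20, adjusted p = 2.77e-10). The step from 200 to 450 µM passed the test as well (log2 1.61 ± 0.28, adjusted p = 0.000218, with 5.2% of probes called). RNA integrity numbers were 9.1 to 9.6 in the pools at 450 µM and 9.4 to 9.9 in the controls, and RNA yields 134 to 218 against 182 to 342 ng/µl. The part of RNA quality in these rises was not tested.

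In PFHxS irf7 measured 122.9, 76.1, 236 and 165 CPM at 400 µM and 70.1, 24.8, 79.9 and 48.1 CPM at 200 µM, against 8.34 to 20.8 CPM (median 16.3) in the Ottawa controls. No pool of either group reached down to the controls. The rises were 9.87-fold (log2 3.303 ± 0.312, adjusted p = 2.30e-08) and 3.66-fold (1.87 ± 0.31, adjusted p = 0.000314), and 400 µM exceeded 200 µM by 1.43 ± 0.33 on the log2 scale (adjusted p = 0.0175, 3.95% of probes called). With the RNA extraction batch as a term the rise at 200 µM no longer passed (log2 1.53, adjusted p = 0.104). Below 200 µM irf7 was not called, at 9.88 to 22.7 CPM.

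With PFOS at 40 µM irf7 measured 73.2, 42.8, 238, 144.996 and 170.8 CPM, all above the mixed controls at 24.8, 24.5, 14.6 and 19.4 CPM. The rise was 6.62-fold (log2 2.73 ± 0.35, adjusted p = 1.71e-06), and against the Ottawa controls it was 3.14 on the log2 scale (adjusted p = 6.81e-09). The 20 pools at lower PFOS concentrations spanned 7.52 to 25.99 CPM (median 12.6), so the whole rise lay between 12 and 40 µM (log2 3.00 ± 0.32, adjusted p = 1.14e-07, 8.4% of probes called). With PFDS at 6 µM irf7 measured 71.9, 86.6, 75.5 and 146.1 CPM, a 4.59-fold rise (log2 2.20 ± 0.24, adjusted p = 1.74e-06) with no overlap with the controls. PFDS at 2 µM gave 30.7, 26.7, 24.7 and 21.9 CPM, which was not called, and the step from 2 to 6 µM was 1.87 ± 0.24 (adjusted p = 2.33e-05, 7.05% of probes called).

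In PFOA, PFDA, PFBA and PFBS it was not called at any concentration, and at the highest concentrations the log2 changes were −0.45 ± 0.34 for PFOA, −0.21 ± 0.24 for PFDA, −0.13 ± 0.30 for PFBA and −0.26 ± 0.28 for PFBS. PFHxA at 600 µM measured 15.3, 21.8, 27.3 and 28.9 CPM, of which 3 exceeded the highest Ottawa control (log2 0.63 ± 0.25, adjusted p = 0.0762). In order of mean level the groups ran from PFNA at 450 µM (209 ± 52 CPM) through PFHxS at 400 µM (150 ± 68), PFOS at 40 µM (134 ± 78), PFDS at 6 µM (95.05 ± 34.62) and PFNA at 200 µM (67.9 ± 21.1) to PFHxS at 200 µM (55.7 ± 24.5). Each pair of neighbours in that order differed by less than the larger of their SDs. All 6 means stood above that of the next group, PFDS at 2 µM (26.004 ± 3.728).

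isg15, the ubiquitin-like effector, rose in PFOA, PFNA and PFHxS, of which PFNA and PFHxS also raised irf7, at the same concentrations. With PFOA at 120 µM it measured 140.8, 141.5, 109.3, 132.6 and 171.1 CPM, and at 400 µM 125.6, 132.7, 139.9, 86.8 and 186 CPM, against at most 78.2 CPM in the mixed controls. All 10 pools lay above the controls, and the rises were 2.31-fold (log2 1.21 ± 0.28, adjusted p = 0.0116) and 2.24-fold (1.16 ± 0.28, adjusted p = 0.0159). The group means below these were 63.9 ± 21.95 CPM at 4, 75.8 ± 22.3 at 12 and 99.2 ± 31.2 at 40 µM, none of them called. The call at 400 µM ended without mixed control pool 3, the low one at 26.6 CPM (log2 0.91, adjusted p = 0.0639), or without PFOA pool 5 (1.02, adjusted p = 0.0613). Against the acid's own pools at 4 µM the rises were 1.11 at 120 µM (adjusted p = 0.15) and 1.07 at 400 µM (adjusted p = 0.0858).

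With PFNA isg15 measured 39.33, 65.01, 55.8 and 40.5 CPM at 450 µM and 39.2, 44.7, 61.2 and 30.6 CPM at 200 µM. Of the 16 controls 1 pool, at 50.96 CPM, reached into that range, and the others lay at or under 27.4 CPM. The rises were 2.58-fold (log2 1.37 ± 0.25, adjusted p = 3.64e-05) and 2.28-fold (1.19 ± 0.25, adjusted p = 0.00143). Against only the 4 controls of the same RNA extraction batch, which include the pool at 50.96 CPM, the rise at 200 µM was 0.87 (adjusted p = 0.133).

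With PFHxS isg15 measured 41.4, 34.7, 44.7 and 35.2 CPM at 400 µM and 49.05, 32.3, 30.1 and 36.9 CPM at 200 µM, where the highest Ottawa control had 31.5 CPM, so that 4 of 4 and 3 of 4 pools lay above all controls. The changes were 0.85 ± 0.24 (adjusted p = 0.0102) and 0.78 ± 0.24 (adjusted p = 0.039) on the log2 scale, about the same at both concentrations. With the extraction batch as a term they gave adjusted p = 0.258 and 0.345, and with the 2 DMSO pools that the submitters excluded added to the controls the changes were 0.14 and 0.06. At 200 µM the call also ended when any of 6 of the 10 libraries was left out (adjusted p up to 0.159).

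The 1 fall among the members was isg15 with PFOS at 40 µM, at 39.04, 18.7, 24.3, 15.4 and 15.4 CPM against the mixed controls (log2 change −1.38 ± 0.45, adjusted p = 0.0217). This fall rests on the choice of controls, and it also ended without control pool 1 or 4 or PFOS pool 4 or 5 (adjusted p of 0.0527 to 0.0681). Against the Ottawa controls, whose mhc1uba level these pools shared, the change was 0.06 (adjusted p = 0.939), and against the acid's own pools at 0.4 µM it was −0.32 (adjusted p = 0.642). Over the 20 pools at lower PFOS concentrations isg15 ranged from 11.83 to 95.7 CPM (median 35.7). Tested jointly over the 5 PFOS concentrations against the mixed controls, isg15 did not pass (edgeR, adjusted p = 0.0858, 632 of 2761 probes called). PFDA at 12 µM measured 77.1, 88.6, 170 and 145.8 CPM, with 3 of 4 pools above the mixed controls, but the change of 1.00 ± 0.37 was not called (adjusted p = 0.44). In PFHxA at 600 µM isg15 stayed at 15.0, 19.5, 28.1 and 21.6 CPM, inside the Ottawa range (log2 −0.04 ± 0.28, adjusted p = 0.94).

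mxc, the Mx GTPase, had its largest fitted rise in a group where isg15 was not called. With PFHxA at 600 µM it measured 48.99, 91.9, 97.6 and 66.8 CPM, against 2.97, 3.00, 11.4, 14.8, 6.37 and 4.02 CPM in the Ottawa controls. The groups were far apart, with the lowest exposed pool above the highest control, and the rise was 10.7-fold (log2 3.41 ± 0.35, adjusted p = 1.35e-07). At 200 µM PFHxA the pools measured 12.4, 15.4, 7.63 and 12.3 CPM, so the rise came between 200 and 600 µM (log2 2.67 ± 0.39, adjusted p = 0.000137, 8.67% of probes called). The call held in all 10 fits that left out 1 library and in 12 other settings, with log2 changes of 2.65 to 4.47. Summed over 13 leukocyte markers, the 4 pools held 361 to 486 CPM and the 6 controls 287 to 449 CPM, and 1 of the 13 markers had 0 counts in all 4 pools. The most abundant of them, the lysozyme gene lyz, was not called (199.97 ± 54.78 in the controls, 163.1 ± 30.3 CPM), while 4 of 11 tested markers rose in the same pools, mpeg1.1 by 2.26-fold, cybb by 2.97-fold, mpx by 1.59-fold and havcr1 by 1.93-fold. The part of leukocyte number in the rise of mxc was not tested.

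In PFNA mxc was called higher at 40 and 200 µM but not at 450 µM. It measured 20.3, 17.8, 36.95 and 20.0 CPM at 40 µM and 11.803, 15.5, 38.9 and 19.9 CPM at 200 µM, then 9.76, 3.04, 6.71 and 5.12 CPM at 450 µM. Against all 16 controls (1.88 to 23.1 CPM, median 9.39) the first 2 groups were called, with log2 changes of 1.24 ± 0.34 (adjusted p = 0.0285) and 1.11 ± 0.34 (adjusted p = 0.0321). The change at 450 µM, −0.71 ± 0.41, was not called (adjusted p = 0.193), and its pools all lay inside the range of these controls. The 4 controls extracted with the PFNA pools had 12.07, 13.1, 21.7 and 23.1 CPM, and the other 12 had 1.88 to 14.1 CPM. The ranges overlapped, with 1 of the 12 above 2 of these 4, and the mean was 17.5 CPM in this batch and 5.75 to 9.64 CPM in the other 3. Against those 4 alone neither rise passed (log2 0.42, adjusted p = 0.549, and 0.30, adjusted p = 0.751), and the level at 450 µM was lower (−1.53, adjusted p = 0.0036). The call at 200 µM also ended without pool 3 (0.65, adjusted p = 0.368) or pool 4 (adjusted p = 0.0595), and that at 40 µM without pool 1, 2 or 3 (adjusted p of 0.0532 to 0.189). The fall from 200 to 450 µM, within 1 extraction batch, was −1.82 ± 0.49 (adjusted p = 0.021).

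**Figure D3:**
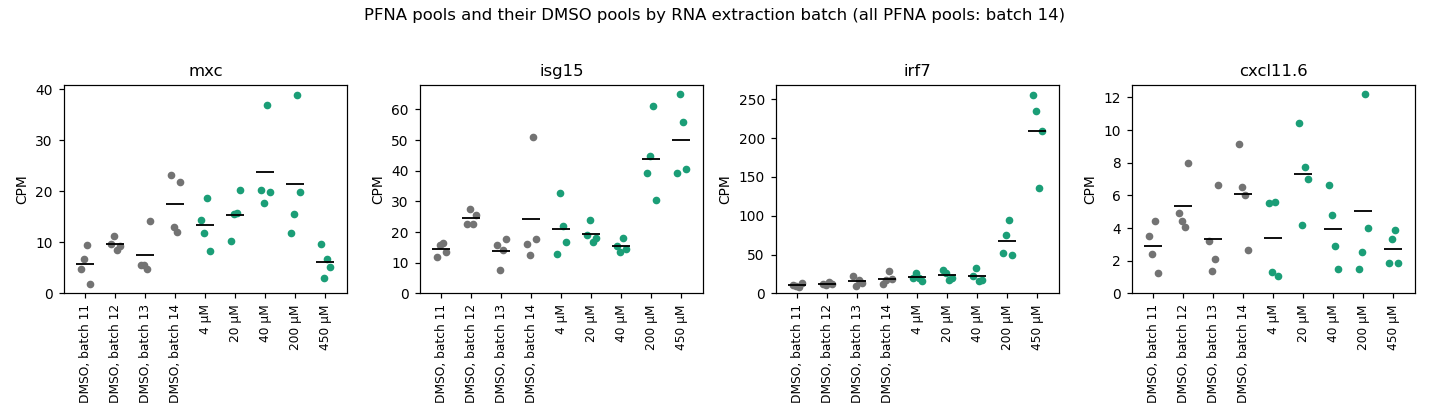
CPM of each member in the 16 DMSO pools of PFNA, in grey by RNA extraction batch (11 to 14), and in the PFNA pools by concentration, in green; points are pools and bars group means, and every PFNA pool belongs to batch 14. For mxc the DMSO pools of batch 14 have the highest mean and overlap with 1 pool of batch 13, while irf7 at 200 and 450 µM lies above the DMSO pools of every batch.

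mxc also dropped at the top of the PFDS range, from 19.2, 39.33, 19.7 and 10.8 CPM at 2 µM to 8.24, 4.81, 6.24 and 8.95 CPM at 6 µM (log2 difference −1.65 ± 0.39, adjusted p = 0.00875). Neither group differed from the mixed controls by the test (log2 1.04 ± 0.37, adjusted p = 0.994, and −0.61 ± 0.40, adjusted p = 0.395). Tested jointly for a difference at any of the 5 concentrations, in either direction, mxc passed in PFDS (edgeR, adjusted p = 0.0389, 196 of 2709 probes called). In PFOA mxc passed that joint test too (adjusted p = 0.0218, 65 of 2728 probes called), which takes in a log2 change of 1.28 ± 0.55 at 4 µM. With PFOA at 400 µM it measured 4.45, 4.99, 3.19, 2.67 and 4.36 CPM, every pool under the lowest mixed control at 6.02 CPM, but the change of −1.44 ± 0.59 was not called (adjusted p = 0.259). It was called when the 2 groups were fitted alone (adjusted p = 0.0411), and adjusted p was 0.0523 after removing 1 PFOA pool at 4 µM, chosen after its values were seen, whose mxc stood at 78.04 CPM against 6.38 to 11.0 CPM in the other 3. With PFHxS at 200 µM mxc measured 2.07, 2.20, 0.904 and 5.28 CPM (log2 −1.42 ± 0.48, adjusted p = 0.0702), a level close to the counting limit. DESeq2 called that fall (adjusted p = 0.0318), and so did edgeR without Ottawa control pool 1 or 2 or PFHxS pool 4 (adjusted p of 0.0291 to 0.0432). edgeR also called it with the mixed and Ottawa controls pooled (−1.67, adjusted p = 0.0166) and with the excluded DMSO pools added (−1.85, adjusted p = 0.0191). Those settings added controls with more mxc than the Ottawa mean of 7.10 CPM. The mixed controls averaged 10.9 CPM, and the excluded pools had 14.4 and 20.6 CPM of the library total. Against the acid's own pools at 6 µM it was called as well (−1.79, adjusted p = 0.0465). Under the remaining settings, and without any other single library, this fall was not called.

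cxcl11.6, the chemokine, moved in 1 of 45 comparisons. With PFHxA at 600 µM it measured 10.9, 13.4, 14.4 and 12.09 CPM, against 4.75, 3.34, 2.68, 1.65, 0.303 and 4.55 CPM in the Ottawa controls. All 4 pools lay above all 6 controls, and the rise was 4.34-fold (log2 2.12 ± 0.46, adjusted p = 0.00194). It also exceeded PFHxA at 200 µM, at 2.32, 6.56, 3.32 and 3.71 CPM (log2 1.69 ± 0.52, adjusted p = 0.0417). With the extraction batch as a term the change was 1.78 and no longer passed (adjusted p = 0.362). With PFHxS at 6 µM its 4 pools, at 5.04 to 11.0 CPM, also lay above the Ottawa controls, but the change of 1.32 ± 0.55 was not called (adjusted p = 0.386). With PFOS at 40 µM it measured 2.89, 9.51, 0.658, 2.14 and 0.313 CPM, with 4 of 5 pools under the lowest mixed control at 4.597 CPM. That change was −0.79 ± 0.60 (adjusted p = 0.365), −1.81 without pool 2 (adjusted p = 0.0258), −1.56 against the acid's own pools at 0.4 µM (adjusted p = 0.0411) and 0.11 against the Ottawa controls (adjusted p = 0.923). The largest drop of the fitted values was −0.86 with PFBS at 250 µM (adjusted p = 0.996), and single pools reached 15.2 CPM in PFOA at 40 µM and 14.4 CPM in PFDS at 0.6 µM.

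isg15 and irf7 were both called higher with PFNA at 200 and 450 µM and with PFHxS at 200 and 400 µM, and mxc and cxcl11.6 with PFHxA at 600 µM. In the other comparisons with a call except PFOS at 40 µM, where irf7 rose and isg15 fell, 1 member was called. The ratios of members within a library, from which library scaling cancels, were compared between the highest concentration of each acid and its DMSO pools by exact two-sided permutation tests on log2 ratios. Of 54 ratios (6 pairs of members in 9 acids) 18 passed after Benjamini-Hochberg adjustment. The count fell to 5 without any 1 pool of PFHxA at 600 µM or of PFHxS at 400 µM. With PFHxA at 600 µM the ratio of mxc to irf7 rose by 2.96 on the log2 scale and that of mxc to isg15 by 3.60 (for each exact p = 0.00952, the smallest that 4 against 6 pools allow, adjusted p = 0.0429). With PFNA at 450 µM the ratio of mxc to irf7 went the other way, by −4.49 (exact p = 0.000413, the smallest that 4 against 16 allow, adjusted p = 0.00557). It was also lower with PFHxS at 400 µM, by −3.38 (exact p = 0.00952, adjusted p = 0.0429), and with PFOA at 400 µM, by −0.93 (exact p = 0.0159, adjusted p = 0.0476). The ratio of mxc to isg15 was lower with PFNA at 450 µM, by −2.06 (exact p = 0.00124, adjusted p = 0.0134), and with PFOA at 400 µM, by −2.62 (exact p = 0.0159, adjusted p = 0.0476). The ratio of isg15 to irf7 fell by −2.43 with PFNA (exact p = 0.000413, adjusted p = 0.00557), −2.33 with PFHxS (exact p = 0.00952, adjusted p = 0.0429) and −3.86 with PFOS (exact p = 0.0159, adjusted p = 0.0476), and rose by 1.68 with PFOA at 400 µM (exact p = 0.0159, adjusted p = 0.0476). It also fell with PFHxA at 600 µM, by −0.64 (exact p = 0.00952, adjusted p = 0.0429). The PFOS ratio was set against the mixed controls alone, and for isg15 exposure and fish origin cannot be told apart there. PFDA and PFDS, with 4 pools against 4, cannot go below exact p = 0.0286, and none of their 12 ratios passed. In PFHxA the ratio of mxc to cxcl11.6, the 2 members that both rose there, did not pass (1.20, exact p = 0.267, adjusted p = 0.411).

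**Figure D4:**
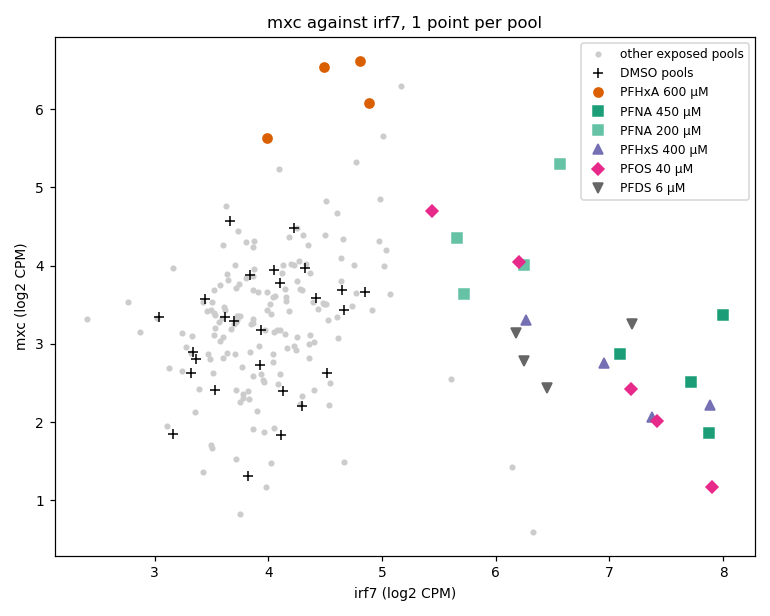
Level of mxc against irf7 in log2 CPM, 1 point per pool, for the DMSO pools (crosses), 6 exposed groups in colour and all other exposed pools in light grey. The PFHxA pools at 600 µM lie at the top with irf7 at 15.3 to 28.9 CPM, while PFNA at 450, PFHxS at 400 and PFDS at 6 µM lie to the right with mxc at 3.04 to 9.76 CPM and PFOS at 40 µM spreads from 1.65 to 25.5 CPM.

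The 5 pools of PFOS at 40 µM, described after their values were seen, held irf7 and mxc in opposite orders. Pools 1 and 2, with the lowest irf7 (73.2 and 42.8 CPM), had the highest mxc (15.9 and 25.5 CPM) and cxcl11.6 (2.89 and 9.51 CPM). Pools 3, 4 and 5, with irf7 at 238, 144.996 and 170.8 CPM, had mxc at 1.65, 4.75 and 3.45 CPM and cxcl11.6 at 0.658, 2.14 and 0.313 CPM. isg15, at 39.04, 18.7, 24.3, 15.4 and 15.4 CPM in pools 1 to 5, did not separate pools 1 and 2 from the others. Each of the 5 pools came from another extraction batch. Across all 214 pools, after subtracting group means, no pair of members correlated with an adjusted p under 0.05 (permutation within groups): Pearson r ran from −0.0037 to 0.189 and Spearman rho from 0.0515 to 0.162, with a lowest adjusted p of 0.0553 for r and 0.133 for rho. Without the 2 pools farthest from the median, r ran from 0.0104 to 0.164. On plates 1 and 2 mxc and irf7 had r of 0.291 (n = 88) and −0.171 (n = 89), and on plate 3 mxc and cxcl11.6 had r of 0.561 (n = 36, adjusted permutation p = 0.00546). Within the 26 DMSO pools alone 2 of 6 pairs passed, isg15 with irf7 (r = 0.571, adjusted permutation p = 0.02) and isg15 with cxcl11.6 (r = 0.514, adjusted permutation p = 0.0204).

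For 12 pairs of acids that shared a concentration, the acids were set against each other, as the difference of their changes from DMSO, in 1 edgeR fit over the 214 libraries with p adjusted over 2946 probes per pair. For 2 acids with shared controls this is the difference between the exposed pools. Of 48 member tests, 14 passed.

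At 600 µM, PFHxA exceeded PFBA, the shorter carboxylic acid, in mxc by 2.53 ± 0.47 on the log2 scale (adjusted p = 2.92e-05, 1 of 4 members called higher, as were 5.19% of probes). It exceeded PFBS, the 4-carbon sulfonic acid, by 3.99 ± 0.51 (adjusted p = 4.36e-10) in mxc and by 1.82 ± 0.62 (adjusted p = 0.0379) in cxcl11.6 (2 of 4 members, 10.6% of probes). The cxcl11.6 difference from PFBA was 1.73 (95% interval 0.52 to 2.94) at adjusted p = 0.0501. The call for cxcl11.6 ended without any of 6 of the exposed pools (adjusted p up to 0.158). PFBA and PFBS, which differ in the acid group, had no member called between them (0.102% of probes), with intervals of −0.97 to 0.62 for isg15, −0.55 to 0.81 for irf7 and 0.46 to 2.47 for mxc.

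At 200 µM, PFHxA and PFHxS differed in 3 of 4 members (16.5% of probes): mxc was higher by 2.14 ± 0.55 (adjusted p = 0.00199), isg15 lower by −1.46 ± 0.39 (adjusted p = 0.00325) and irf7 lower by −1.89 ± 0.33 (adjusted p = 2.67e-06) in PFHxA. PFNA exceeded PFHxA in isg15 by 1.86 ± 0.46 (adjusted p = 0.00386) and irf7 by 2.26 ± 0.39 (adjusted p = 9.14e-06), 2 of 4 members with 7.26% of probes called. PFNA and PFHxS, a carboxylic and a sulfonic acid that both raised irf7 at 200 µM, differed in mxc alone (2.50 ± 0.63, adjusted p = 0.00754, 1.9% of probes called higher). Their irf7 changes differed by 0.36 with an interval of −0.38 to 1.104, and their isg15 changes by 0.40 (−0.47 to 1.28). The mxc difference ended without PFNA pool 3 (adjusted p = 0.0709). In these pairs the PFNA changes are from all 16 controls (1.11 for mxc and 1.19 for isg15). Against only the controls of the same extraction batch they were 0.30 for mxc and 0.87 for isg15.

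At 400 µM, irf7 was higher with PFHxS than with PFOA by 3.74 ± 0.42 (adjusted p = 1.54e-12, 1 of 4 members, 6.59% of probes called higher), and the isg15 changes, 0.85 and 1.16, differed by −0.32 with an interval of −1.27 to 0.62. At 40 µM, PFOS and PFOA, both of 8 carbons, stood apart in opposite directions for 2 of 4 members (33.5% of probes): irf7 was higher by 3.15 ± 0.30 (adjusted p = 4.76e-18) and isg15 lower by −2.15 ± 0.33 (adjusted p = 2.67e-08) in PFOS. The isg15 difference sets pools with mhc1uba at Ottawa levels against pools with mhc1uba at mixed levels, and exposure and fish origin cannot be told apart in it. irf7 was lower with PFNA than with PFOS at 40 µM (−2.07 ± 0.40, adjusted p = 4.97e-05, 1 of 4 members, 3.53% of probes called lower), and PFNA and PFOA had none called (3.22% of probes). At 12 µM isg15 was lower with PFOS than with PFDA (−1.08 ± 0.33, adjusted p = 0.0178, 1 of 4 members, 7.09% of probes called lower), with mhc1uba at 5.21 to 14.5 CPM in PFOS and 11.47 to 29.45 CPM in PFDA. That call ended without PFOS pool 3 or 4 or PFDA pool 3 or 4 (adjusted p of 0.0626 to 0.111). PFOA and PFDA at 12 µM had no member called (0.679% of probes), with an interval of −1.35 to 0.04 for isg15.

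**Figure D5:**
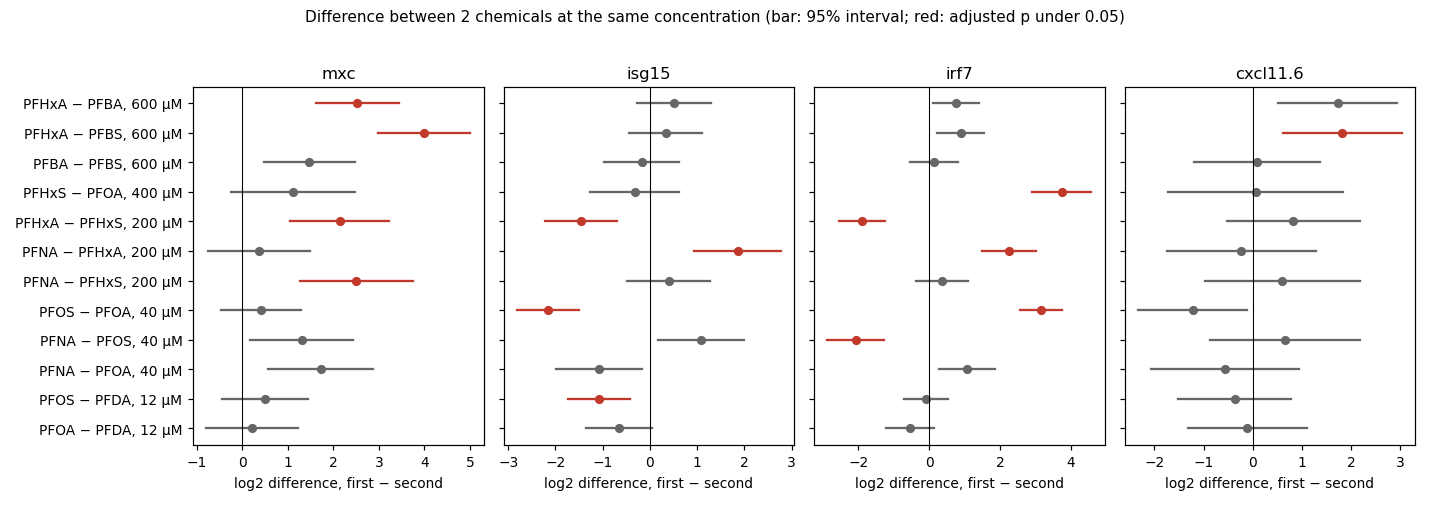
Log2 difference between 2 acids at the same concentration (first minus second, each relative to its DMSO pools) for the 4 members, with 95% intervals; red marks an adjusted p under 0.05. Red intervals of irf7 and isg15 point in opposite directions for PFOS against PFOA at 40 µM, and mxc is red in the pairs of PFHxA with PFBA and PFBS at 600 µM.

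Other genes of the pathway on the panel were followed from lists chosen with earlier results known. Of 45 interferon effectors listed, 15 were on the panel. The shares of all probes called, against which the counts of list genes stand, were 20.3% with PFHxA at 600 µM, 33.1% and 9.69% with PFNA at 450 and 200 µM, 21% with PFHxS at 400 µM, 26.9% with PFOS at 40 µM, 10.2% with PFDS at 6 µM and 2.53% with PFOA at 400 µM. Differences between exposures in a list were not tested. With PFHxA at 600 µM 4 of 10 tested effectors rose and none fell (median log2 change 0.22, against −0.04 over all probes): the guanylate-binding protein genes gbp2 (12.2035 ± 2.6754 to 27.2 ± 3.0 CPM, log2 1.15 ± 0.23) and gbp1 (1.29 ± 0.36), the apoptosis factor gene xaf1 (0.77 ± 0.16) and sp100.1 (1.32 ± 0.37). Of 7 immunoproteasome and antigen processing genes 2 rose (median 1.16), the proteasome activator subunit gene psme1 (25.97 ± 5.70 to 63.7 ± 9.1 CPM, log2 1.29 ± 0.16) and the immunoproteasome subunit gene psmb9a (1.43 ± 0.43). Of 6 sensors and adaptors 1 rose, ifih1, which encodes the RNA sensor MDA5 (1.12 ± 0.21). Of 7 JAK-STAT and IRF genes 2 rose and 1 fell, with stat4 at 2.08 ± 0.35, irf8 at 1.37 ± 0.21 and the cytokine signalling suppressor socs2 at −0.92 ± 0.16. Of 11 leukocyte markers 4 rose there, among them the macrophage gene mpeg1.1 (15.3 ± 4.0 to 34.8 ± 10.4 CPM) and the oxidase gene cybb (log2 1.57 ± 0.33).

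With PFNA at 450 µM 2 of 13 effectors rose, xaf1 (0.96 ± 0.15) and the ubiquitin ligase gene trim25 (1.55 ± 0.48), and 1 fell, tnfsf10 (−1.32 ± 0.15). The antigen processing list had 0 rises and 2 falls of 9 there, in cd74a (−1.66 ± 0.36) and psmb9a (−0.86 ± 0.32). Of 7 JAK-STAT and IRF genes 4 rose, led by irf8 (1.00 ± 0.14), and of 14 NF-kB and inflammatory genes 7 rose, led by cebpb (2.00 ± 0.26), mmp9 (2.54 ± 0.34) and socs3a (1.33 ± 0.20). The inflammatory list also had 6 of 12 rises with PFHxS at 400 µM, 6 rises and 1 fall of 14 with PFOS at 40 µM and 5 rises of 12 with PFDS at 6 µM and 2 of 13 with PFHxA at 600 µM. Of 10 tested effectors 1 rose and 1 fell with PFHxS, 1 rose with PFOS and 1 fell with PFDS at these concentrations. Of 7 JAK-STAT and IRF genes 2, 3 and 1 rose in the same order, and of 6 sensors and adaptors 1, 2 and 1. Antigen processing genes had 0 calls of 7 with PFHxS and 1 rise of 9 with PFDS. mmp9, a matrix metalloproteinase gene, averaged 16.0 ± 4.7 CPM with PFNA, 14.4 ± 8.7 with PFHxS, 12.7 ± 4.8 with PFOS, 15.0 ± 10.6 with PFDS and 3.81 ± 1.07 with PFHxA. With PFNA at 200 µM, where 3 members rose, 2 of 13 effectors, 2 of 9 antigen processing genes, 2 of 6 sensors and adaptors and 5 of 11 leukocyte markers rose, among them xaf1 (1.11 ± 0.15), psme1 (0.73 ± 0.20), the adaptor myd88 (0.63 ± 0.14) and the neutrophil peroxidase mpx (1.18 ± 0.19). There 1 leukocyte marker fell, cd4-1 (−1.12 ± 0.36). At the highest concentrations 1 of 11 leukocyte markers fell and none rose with each of PFNA and PFOA (lyz) and PFHxS and PFOS (lck). With PFOS at 40 µM 4 of 10 antigen processing genes were lower than in the mixed controls, mhc1uba among them. Exposure and fish origin cannot be told apart in these falls. With PFOA at 400 µM no effector, antigen processing, sensor or JAK-STAT gene was called (0 of 11, 0 of 10, 0 of 6 and 0 of 7), and 2 of 12 inflammatory genes fell, cebpb (−1.45 ± 0.38) and ptgs2b (−2.45 ± 0.48). Tissue markers moved in several of these groups too. Of 20 tested whole-embryo markers, 3 rose and 9 fell with PFNA at 450 µM, 3 rose and 6 fell with PFNA at 200 µM, 2 rose and 4 fell with PFHxS at 400 µM, 2 rose and 5 fell with PFOS at 40 µM, 1 rose and 2 fell with PFHxA at 600 µM and with PFOA at 400 µM, and none was called with PFDS at 6 µM. With PFNA at 450 µM the falls included the cone opsin gene opn1mw1 (log2 −1.78 ± 0.22) and the cartilage collagen gene col2a1a (−1.17 ± 0.20), and the pancreatic hormone gene gcga rose (1.33 ± 0.12). The part of such tissue changes in the levels of the members was not tested.

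The 1 interferon ligand or receptor gene on the panel did not pass the low-count filter in any acid, and the other chemokine and receptor genes gave 0 calls of 2 or 3 tested at each concentration named here.

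Over the 214 libraries, each less the mean of its DMSO set, the probes most like irf7 were the stress-response pseudokinase gene trib3 (Pearson r = 0.87 across libraries), the transcription factor gene atf3 (0.86) and the AP-1 gene junba (0.82). For mxc they were thy1 (0.52), zgc-153932 (0.51) and the deoxycytidylate deaminase gene dctd (0.50), for isg15 coq5 (0.55), the occludin gene oclna (0.55) and the keratin gene krt8 (0.55), and for cxcl11.6 the replication genes gins1 and tk1 and the spindle checkpoint gene mad2l1 (0.39 to 0.40). Among the members themselves r was 0.38 for mxc with cxcl11.6, where mxc ranked 4 of 2946 probes by likeness to cxcl11.6 and cxcl11.6 ranked 39 by likeness to mxc, 0.24 for isg15 with irf7 and 0.01 for mxc with irf7. For the remaining pairs r was −0.13 for mxc with isg15, −0.145 for irf7 with cxcl11.6 and 0.01 for isg15 with cxcl11.6. These values describe libraries that share exposures and controls, and low counts limit them most for cxcl11.6.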

How the data were processed

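Per the labels, RNA from pools of 10 zebrafish embryos was profiled with the TempO-Seq S1500+ panel. The authors deposited raw counts per probe and library, whole numbers with no normalization found in them. The submitters' processing notes name fastp 0.23.2, STAR 2.7.10b and R 4.4.1 without a role, with genome build and counting step not given in the sources used here. The probes cannot be placed on a genome here, and reads shared between close paralogs, such as other Mx or CXCL11-family genes, were not tested. Group, concentration, plate, extraction batch, RNA yield and integrity came from the labels. The members and gene lists were chosen with earlier results of these data known.

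The analysis used edgeR 4.0.16 under R 4.3.3. Per acid, low counts were removed by filterByExpr, libraries were TMM-scaled, and 5 concentrations and their DMSO pools got a mean each, tested two-sided by glmQLFTest with Benjamini-Hochberg adjustment within each contrast at 0.05. Pairs of acids came from 1 fit over 214 libraries. CPM are counts relative to the TMM-scaled library size. Ratios of members used a prior count of 0.5 and exact permutation, correlations 1e+05 shuffles within groups. From each list, the up to 3 called genes with the smallest p per contrast with a called member could be named. Not all of these are named in the text. Outside this rule, sp100.1, havcr1, col2a1a, cd4-1 and the levels of lyz, mpeg1.1 and mmp9 were added after their values were seen. No 2 pools of a group agreed within sampling noise (chi-square per degree of freedom of 6.00 or more over 443 pairs). Same-numbered pools did not vary together (r of −0.19 to 0.154), and replicate numbers were not used to pair samples in the main fits. The fits were tested on simulated data. Alternatives included DESeq2 1.42.0 (size factors and test), total counts, no low-count filter, extraction and plate terms, other controls and leaving out each library. Library totals set counting precision, and the limit of 3 counts covers counting error only. The 2 excluded DMSO pools, 8 reference RNA and 4 water libraries entered no comparison.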

Additional observations from a re-analysis of the deposited data

Results flagged for a closer look

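In 13 sets of pools of a group (6.91% of those tested, each of 4 to 6 pools), 1 pool stood far from the others by Dixon's criterion, where chance gives about 1 in 20. For mxc these were PFOA at 4 µM pool 4 (78.04 CPM), PFBA at 80 µM pool 4 (49.8 CPM), PFNA at 40 µM pool 3 (36.95 CPM) and PFOA at 40 µM pool 1 (15.5 CPM). For isg15 they were PFBA at 80 µM pool 4 (28.4 CPM) and PFHxA at 60 µM pool 4 (15.3 CPM). For irf7 they were PFHxS at 20 µM pool 3 (22.4 CPM), PFOS at 4 µM pool 2 (22.1 CPM) and PFDS at 0.06 µM pool 4 (19.5 CPM). For cxcl11.6 they were PFOS at 40 µM pool 2 (9.51 CPM), PFBA at 8 µM pool 4 (8.29 CPM), PFHxS at 60 µM pool 3 (6.34 CPM) and PFBS at 250 µM pool 1 (4.91 CPM).

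Of 48 tests of a member between 2 acids at the same concentration, 14 passed (edgeR). On the log2 scale, first acid less second, mxc differed by 2.53 for PFHxA and PFBA and by 3.99 for PFHxA and PFBS at 600 µM, and by 2.14 for PFHxA and PFHxS and 2.50 for PFNA and PFHxS at 200 µM. isg15 differed by −1.46 for PFHxA and PFHxS and 1.86 for PFNA and PFHxA at 200 µM, −2.15 for PFOS and PFOA at 40 µM and −1.08 for PFOS and PFDA at 12 µM. irf7 differed by 3.74 for PFHxS and PFOA at 400 µM, −1.89 for PFHxA and PFHxS and 2.26 for PFNA and PFHxA at 200 µM, and 3.15 for PFOS and PFOA and −2.07 for PFNA and PFOS at 40 µM. cxcl11.6 differed by 1.82 for PFHxA and PFBS at 600 µM.

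Libraries outside the comparisons also held signal above all DMSO pools, as CPM of the library total. mxc reached 924 in 1 of 4 water libraries, which holds 176 counts of it in a total of only 190391. The other water libraries held 0 to 2 counts of mxc, and the PFHxA pools at 600 µM 157 to 274. The source of the mxc counts in water was not tested. isg15 reached 200.2 in the first reference RNA and 124.3 in the DMSO pools that the submitters excluded, where cxcl11.6 reached 10.3. cxcl11.6 reached 11.46 in the second reference RNA.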

How the results depend on the processing

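Of the 17 member calls against DMSO, 12 held without every single library and 7 under every other setting run, namely mxc with PFHxA at 600 µM, irf7 with PFNA at 200 and 450 µM, PFHxS at 400 µM, PFOS at 40 µM and PFDS at 6 µM, and isg15 with PFNA at 450 µM. Of the 14 pair calls, 11 and 12 held. Pairs were run in 6 other settings only, without extraction or plate terms or other controls, so the 2 sets of counts are not alike.

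With the extraction batch as a term, the members called became 1 for PFHxA at 600 µM (from 2), 0 for PFNA at 40 µM (from 1), 1 at 200 µM (from 3), 1 for PFHxS at 400 µM (from 2), 0 at 200 µM (from 2) and 1 for PFOS at 40 µM (from 2). With the 2 groups fitted alone the members called became 2 for PFOA at 400 µM (from 1), 0 for PFNA at 40 µM, and 1 for PFHxS at 400 and at 200 µM. Over all probes 53, 48, 260 and 263 were called there, in that order. Against the acid's own lowest concentration the members called became 0 for PFOA at 120 µM (from 1), 0 for PFNA at 40 µM and 1 at 200 µM (5, 2 and 25 of all probes). Against DMSO pools of the same extraction batch they became 0 for PFNA at 40 µM and 1 at 200 µM. With both DMSO groups of the first processing batch pooled they became 1 for PFDA at 12 µM (from 0), 1 for PFHxS at 400 µM and 1 for PFOS at 40 µM (51, 698 and 743 of all probes). PFHxS at 400 µM had 1 with the excluded DMSO pools added (649 of all probes) or with all libraries in 1 fit (706). At 200 µM it had 1 with all libraries in 1 fit (295) or total counts (189). With both DMSO groups pooled or the excluded pools added, mxc was called in place of isg15 for PFHxS at 200 µM. With the Ottawa controls PFOS at 40 µM had 1 (610 of all probes), and the isg15 change turned from −1.38 to 0.0597. For PFHxA and PFBA at 600 µM, DESeq2's size factors, total counts, the pair's groups alone and DESeq2's test each gave 2 (from 1). The pair's groups alone gave 0 (from 1) for PFNA and PFHxS at 200 µM and for PFOS and PFDA at 12 µM. The causes were not tested.

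Same-numbered pools need not share more than a number, but in PFOS they tend to share an RNA extraction batch. A replicate block there partly follows that batch. With the replicate block, the members called became 2 for PFNA at 40 µM, 1 for PFHxS at 200 µM, 2 for PFHxA and PFBA at 600 µM and 2 for PFNA and PFOA at 40 µM (from 0), and the count stayed within 1.5 times in 11 of 13 contrasts and 10 of 12 pairs.

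Leaving out 1 library in turn gave 0 to 1 members for PFOA at 400 µM, 0 to 2 for PFNA at 40 µM, 2 to 3 at 200 µM, 1 to 3 for PFHxS at 200 µM, 1 to 3 for PFOS at 40 µM and 2 to 3 for PFHxA at 600 µM. For pairs it gave 1 to 2 for PFHxA and PFBA, 1 to 3 for PFHxA and PFBS, 0 to 1 for PFNA and PFHxS, 2 to 3 for PFOS and PFOA, 1 to 2 for PFNA and PFOS, 0 to 1 for PFNA and PFOA and 0 to 1 for PFOS and PFDA. The calls over all probes also varied between such fits and are not given here. The count of 18 ratios ranged from 5 to 19, with 5 without any pool of PFHxA at 600 µM or PFHxS at 400 µM. Correlations within groups that passed in subsets were mxc with cxcl11.6 on plate 3 (r = 0.561), and isg15 with irf7 (0.571) and with cxcl11.6 (0.514) in the 26 DMSO pools (permutation tests). A plate term could not be fitted for PFNA, which has 1 plate. Low counts limit cxcl11.6 and mxc most.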

Other observations

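In 2 pools most or all members held the highest level of their group, and both pools were chosen after their values were seen. PFBA at 80 µM pool 4 held the highest level of its group for all 4 members, with mxc at 49.8, isg15 at 28.4, irf7 at 31.6 and cxcl11.6 at 9.56 CPM. Its isg15 lay inside the range of the Ottawa controls, 12.7 to 31.5 CPM. PFOA at 4 µM pool 4 held mxc at 78.04, isg15 at 90.6 and irf7 at 35.3 CPM, the highest of its group, and cxcl11.6 at 4.01 CPM. Of 13 other interferon effectors, 5 (38.5%) in the first pool and 7 (53.8%) in the second were highest of the 4 pools there, beside 26.6% and 22.7% of 2946 probes. Of 16 NF-kB and inflammatory genes 9 (56.2%) were highest in each pool, and of 11 leukocyte markers 2 and 1. Of 10 antigen processing genes 1 (10%) and 5 (50%) were highest, and of 6 sensors and adaptors 2 (33.3%) and 3 (50%). Of 7 JAK-STAT and IRF genes 2 (28.6%) were highest in each pool.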
